A study of Homo sapiens with 5 samples.

Results

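The genes that mark and instruct the layers of the cerebral cortex were followed through human brain organoids before and after grafting into the mouse brain. They were 9 transcription factors or cofactors, TBR1, BCL11B, FEZF2, TLE4 and SOX5 for the deep layers and CUX1, CUX2, POU3F2 and BHLHE22 for the upper layers, of 32732 genes listed for every library. Their levels were read in neurons, which were human cells with at least 1 UMI of STMN2, a microtubule regulator of growing axons, and at least 1 UMI of another pan-neuronal gene after each cell had been thinned to 1000 UMIs. A UMI is a random tag that counts 1 captured RNA molecule once. This gate held 19505 of 34390 human cells, and all 9 genes passed the filter on low counts in every comparison.

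In the developing cortex, neurons are born from progenitors in an order that ends in layers, with deep-layer neurons first and upper-layer neurons later. TBR1 and FEZF2 set alternative deep-layer fates, and BCL11B acts below FEZF2 in neurons that project out of the cortex. TLE4 is a corepressor of layer 6 neurons and SOX5 times the birth of deep-layer types, whereas CUX1, CUX2 and POU3F2 belong to upper-layer neurons, and BHLHE22 is a repressor of postmitotic neurons that spans several layers and is grouped here with the upper-layer genes. Early neurons often carry RNA of genes of more than 1 layer, and the RNA of a gene in a cell does not by itself give the cell a layer.

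All organoids were made from H9, an established human embryonic stem cell line, which carried ChR2, a light-gated channel, and the fluorescent protein EYFP at the AAVS locus. The D0 library held organoids at day 42 of culture, the stage at which they were transplanted. The 4 other libraries held grafts from the hippocampus (HIP) or prefrontal cortex (PFC) of immunodeficient SCID-Beige mice, taken 2 or 4 months post transplantation (2MPT or 4MPT), and are called HIP_2MPT, PFC_2MPT, HIP_4MPT and PFC_4MPT. Each condition was 1 library of pooled material, so the HIP and PFC libraries served as the 2 libraries of a graft stage and D0 stood alone, and the spread measured between them may be technical. Grafts differed from D0 in their host, but also in age, in the dissociating enzyme, in the release of Cell Ranger and the human annotation used for counting, and in depth, and these cannot be told apart.

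Files held 12451092 to 57135277 UMIs per library, and median UMIs per neuron were 8679.5 in D0 and 1329 to 2531 in grafts. Neurons were 32.2% of the human cells of at least 1000 UMIs in D0 and 55.8% to 86.2% in grafts, and 3303 human cells lay under that depth. In the gated neurons all 4 glutamatergic markers were detected in every library, with summed levels of 1153.3, 1083.9 and 983.0 CPM (UMIs of a gene per 1e6 UMIs of the neurons) in D0, HIP_2MPT and PFC_2MPT and of 420.3 and 420.9 CPM in HIP_4MPT and PFC_4MPT. The summed level of 7 inhibitory neuron markers was 386.2 CPM in D0. It was 2.5 and 16 CPM in the HIP and PFC grafts at 2MPT and 146.7 and 633.1 CPM in those at 4MPT. PFC_4MPT thus held the most inhibitory neuron RNA. Glutamatergic-marker neurons had a UMI of a glutamatergic marker and none of the inhibitory ones after thinning. They were 667 of 1480 neurons in D0, 3609 of 5728 in HIP_2MPT and 2442 of 4101 in PFC_2MPT. At 4MPT they were 1294 of 3763 (HIP) and 1305 of 4433 (PFC). Most gated neurons of D0 and of 4MPT thus lay outside this class. D0 stood apart in 3 further respects. It had 1990.0 CPM of 4 progenitor markers against 210.7 to 470.2 in grafts, and 537.8 CPM of the choroid plexus gene TTR against 0.291 to 1.43. It also had 82.1 CPM of the neuronal tubulin TUBB3 against 1299.9 to 2324.2. TUBB3 is a gene of the neuron gate, and the gate genes did not all go its way. DCX was at 1118.9 CPM in D0 and 391.2 to 597.9 in grafts, and STMN2 at 1931.4 and 2413.0 to 4417.5. The 11 pan-neuronal genes summed to 5542.8 CPM in D0 and 5585.9 to 9537.0 in grafts. Pairs of libraries shared 6 to 20 cell barcodes, at most 0.289% of a library's human cells.

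In GRCh38 (GENCODE 44 annotation) the genes lie apart from each other, TBR1 at chr2:161416297-161425870, BCL11B at chr14:99169287-99272197, FEZF2 at chr3:62369681-62374324, TLE4 at chr9:79571773-79726882, SOX5 at chr12:23529504-24562544, CUX1 at chr7:101815904-102283958, CUX2 at chr12:111034165-111350554 and POU3F2 at chr6:98834574-98839458. CUX1 and CUX2 are paralogs, and they parted in level among these neurons. The first 26 coding bases, in exon 1 of each on the plus strand, are shown with a run of 20 identical bases in capitals (RefSeq, GRCh38.p14, chr7:101816031-101816056 and chr12:111034178-111034203).
CUX1: atggcgGCCAATGTGGGATCGATGTT
CUX2: atggccGCCAATGTGGGATCGATGTT
Droplet reads come from the other, 3′ end of a transcript, so this run does not mix their counts. TBR1 overlaps SLC4A10 on the same strand, a gene with 206 UMIs in D0 neurons and 526 to 1210 in graft neurons, and how reads in the shared stretch were counted was not tested. CUX1 overlaps a lncRNA on its strand that had 0 to 4 UMIs in the neurons of each graft. CUX2 overlaps 2 genes on its strand, and neither was among the genes counted in D0 or in grafts.

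TBR1 and SOX5 are the deep-layer genes that took opposite courses below, and the 250 bases before their RefSeq start sites are shown for them (GRCh38.p14, chr2:161416047-161416296, plus strand, and chr12:24562492-24562741, minus strand). Capitals mark AACAAT, the core that SOX proteins bind, and TAATTA, a homeodomain core, on either strand, with ATTGTT as the complement of AACAAT.
TBR1: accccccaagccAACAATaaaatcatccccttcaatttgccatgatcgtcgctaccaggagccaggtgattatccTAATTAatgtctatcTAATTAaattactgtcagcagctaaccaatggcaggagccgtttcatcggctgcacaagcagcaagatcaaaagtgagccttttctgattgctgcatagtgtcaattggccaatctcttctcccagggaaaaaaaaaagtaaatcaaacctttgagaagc
SOX5: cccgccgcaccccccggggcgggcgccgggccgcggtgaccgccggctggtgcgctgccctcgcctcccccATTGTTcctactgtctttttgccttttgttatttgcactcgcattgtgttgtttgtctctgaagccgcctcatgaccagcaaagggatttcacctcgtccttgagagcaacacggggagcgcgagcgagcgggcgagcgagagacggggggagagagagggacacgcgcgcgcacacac
Of 35116 RefSeq windows of 300 bases around a start site, 10.1% held AACAAT and 4.84% held TAATTA on either strand, and of 10 windows of 7 of the genes, 3 held the former (TBR1, SOX5 and TLE4) and 1 the latter (TBR1). The TBR1 window was 43.3% G and C, below the median of 58.7% over all windows, and the main windows of CUX1 and CUX2 were at 75.3% and 76%. A match of letters is a description and not a binding site.

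Levels were ordered differently in D0 and in grafts. In D0 neurons FEZF2, TBR1 and BCL11B led at 151.9, 150.2 and 127.9 CPM, and CUX2 was last at 4.9 CPM. SOX5 led in 3 of 4 grafts and BHLHE22 in HIP_2MPT, whereas FEZF2 was last in the other 3 grafts. CPM were taken from UMIs of 3′ ends and were not divided by gene length, so levels are most safely compared within a gene. With that limit, FEZF2 and TBR1 in D0 could not be ordered, because their 95% counting intervals (exact Poisson, 145.9 to 158.0 and 144.3 to 156.3 CPM) overlapped, nor could SOX5 and CUX1 there (48.4 to 55.5 and 46.5 to 53.5 CPM). In sums over neurons, fewer neurons with a gene and less of its RNA per neuron cannot be told apart. The intervals cover counting error within a library and not the spread between organoids or animals.

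**Figure D1:**
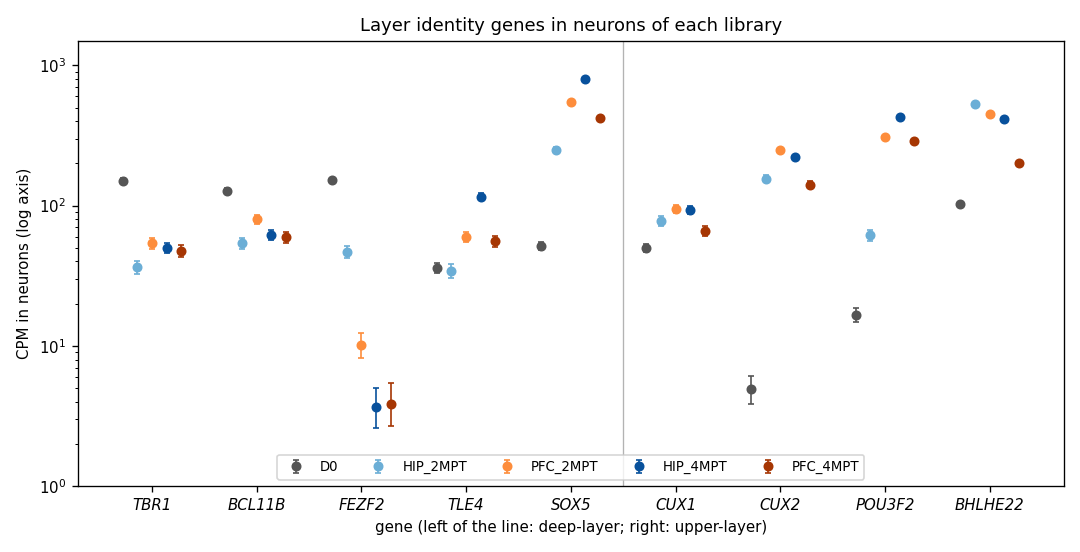
CPM of each layer identity gene in the neurons of each library, on a log axis, with exact Poisson 95% intervals that cover counting error only; deep-layer genes stand left of the line and upper-layer genes right of it. TBR1, BCL11B and FEZF2 were highest in D0, and SOX5, CUX1, CUX2, POU3F2 and BHLHE22 were higher in each graft than in D0.

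Among the deep-layer genes, TBR1 measured 150.2 CPM in D0, and 36.3, 53.9, 50 and 47.2 CPM in HIP_2MPT, PFC_2MPT, HIP_4MPT and PFC_4MPT. BCL11B measured 127.9, 53.9, 79.7, 61.5 and 59.4 CPM in the same order. For both, D0 was the highest library and the 4 grafts lay within 1.48-fold of each other. FEZF2 measured 151.9 CPM in D0, 46.6 (HIP) and 10.1 (PFC) CPM at 2MPT, and 3.68 (HIP) and 3.88 (PFC) CPM at 4MPT. It had the widest range of the 9 genes over grafts, 12.7-fold, with HIP_2MPT far above the others.

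TLE4 measured 36.2 CPM in D0, 34.3 (HIP) and 59.8 (PFC) CPM at 2MPT, and 115.7 (HIP) and 55.6 (PFC) CPM at 4MPT. HIP_2MPT and D0 could not be ordered for TLE4, because their counting intervals overlapped (30.4 to 38.5 and 33.3 to 39.2 CPM). SOX5 measured 51.9, 250.6, 547.7, 793.3 and 422.9 CPM in D0, HIP_2MPT, PFC_2MPT, HIP_4MPT and PFC_4MPT. Each graft thus held at least 4.83 times the D0 level of SOX5, and HIP_4MPT 15.3 times.

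Among the upper-layer genes, CUX1 differed little, at 49.9, 77.8, 94.9, 93.2 and 65.8 CPM from D0 to PFC_4MPT. CUX2, its paralog, was near the bottom of detection in D0 at 4.9 CPM and measured 156.0, 248.1, 221.6 and 141.4 CPM in HIP_2MPT, PFC_2MPT, HIP_4MPT and PFC_4MPT. The grafts were 28.9 to 50.6 times D0 for CUX2 and 1.32 to 1.9 times D0 for CUX1. POU3F2, a POU factor also called BRN2, measured 16.6 CPM in D0 and 61.3, 306.5, 427.9 and 286.7 CPM in the grafts. BHLHE22 measured 102.0 CPM in D0 and 526.1, 448.2, 413.7 and 199.7 CPM in the grafts, with its lowest graft level in PFC_4MPT, the library with the most inhibitory neuron RNA. In glutamatergic-marker neurons alone BHLHE22 was at 493.8 CPM in HIP_4MPT and 263.0 CPM in PFC_4MPT, so the order of these libraries held there.

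Comparing 2MPT grafts with D0 asked which layer genes differed after the first months in the host. Higher levels at 2MPT were found for CUX2, POU3F2, SOX5 and BHLHE22, and lower levels for FEZF2, TBR1 and BCL11B. These 7 of 9 genes were called by edgeR's quasi-likelihood test on UMIs summed per library, with Benjamini-Hochberg adjustment over 17319 genes, against a background of 41.0% of all genes called (25.0% higher and 16.0% lower). The largest difference was that of CUX2, with a log2 fold change of 5.25 (SE 0.518, adjusted p = 3.97e-05). POU3F2 rose by a log2 fold change of 3.36 (SE 0.804, adjusted p = 0.00678), SOX5 by 2.83 (SE 0.563, adjusted p = 0.00244) and BHLHE22 by 2.13 (SE 0.446, adjusted p = 0.00329). So 3 of 4 upper-layer genes rose, and so did 1 deep-layer gene. FEZF2 fell by 2.57 on the log2 scale (SE 0.564, adjusted p = 0.00429), TBR1 fell by 1.85 (SE 0.315, adjusted p = 0.000938) and BCL11B fell by 1.05 (SE 0.318, adjusted p = 0.0213). CUX1 (0.67, adjusted p = 0.124) and TLE4 (0.26, adjusted p = 0.662) were not called, and the median over all genes was 0.16.

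The call of BCL11B was lost without HIP_2MPT (-0.77, adjusted p = 0.177), and that of FEZF2 was lost with DESeq2 (-2.64, adjusted p = 0.0643). POU3F2 ranged from 1.66 without PFC_2MPT to 4.12 without HIP_2MPT. FEZF2 ranged from -4.0 without HIP_2MPT to -1.93 without PFC_2MPT. Each of these fits had 1 library at 2MPT. In neurons with no UMI of SOX2, HES1, PAX6, MKI67, TOP2A, CENPF or EOMES (below, without progenitor UMIs) the same 7 genes were called. This rule did not cover the progenitor marker VIM, which gave 1615.6 of the 1990.0 CPM of progenitor markers in D0 neurons. In glutamatergic-marker neurons CUX1 joined the 7 genes (0.87, adjusted p = 0.0462).

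At 4MPT against D0 the same 7 genes were called in the same directions, against a background of 44.6% of all genes. CUX2 rose by a log2 fold change of 5.13 (SE 0.515, adjusted p = 3.56e-05), POU3F2 by 4.35 (SE 0.85, adjusted p = 0.00202), SOX5 by 3.47 (SE 0.584, adjusted p = 0.00082) and BHLHE22 by 1.51 (SE 0.431, adjusted p = 0.0152). FEZF2 fell by 5.40 on the log2 scale (adjusted p = 8.89e-05), TBR1 fell by 1.70 (SE 0.315, adjusted p = 0.00147) and BCL11B fell by 1.15 (adjusted p = 0.0128). This comparison shares its D0 library with the previous one, so both rest on the same 1480 neurons of organoids in culture. CUX1 was not called (0.60, adjusted p = 0.162). TLE4, at 1.16 (SE 0.462, adjusted p = 0.0594), was not called either, but it passed in 7 other settings, among them glutamatergic-marker neurons (2.12, adjusted p = 0.00237). BHLHE22 was at 0.91 without HIP_4MPT and at 1.92 without PFC_4MPT, each with 1 library left at 4MPT.

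**Figure D2:**
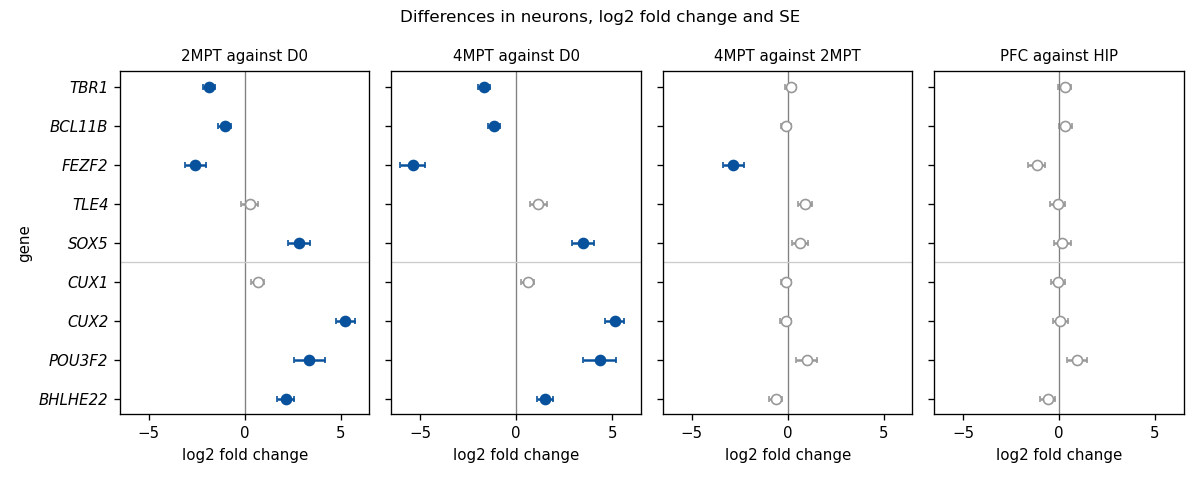
Log2 fold change of each gene in neurons, with its SE, for the 4 comparisons; filled points passed an adjusted p under 0.05 in edgeR and open points did not. The 3 genes that fell and the 4 that rose against D0 were the same at both stages, FEZF2 alone was called between stages, and no gene was called between sites.

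Between the stages, 4MPT was compared with 2MPT to ask what differed during later months in the host. FEZF2 alone of the 9 genes was called, where 0.924% of all genes were called (0.647% higher and 0.277% lower), and it was lower at 4MPT by 2.83 on the log2 scale (SE 0.561, adjusted p = 0.0428). Its mean level was 28.4 ± 25.8 CPM (SD, n = 2) at 2MPT and 3.78 ± 0.144 CPM at 4MPT, so most of the spread lay between the 2MPT libraries. Without HIP_2MPT, which left 1 library at 2MPT, the difference was -1.39. The call was lost with DESeq2 (-2.80, adjusted p = 0.134), in glutamatergic-marker neurons (-2.70, adjusted p = 0.0675) and with counts from the dual reference (-2.85, adjusted p = 0.0593). With the graft site as a block it was -2.51 (adjusted p = 0.00285).

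POU3F2 was at 183.9 ± 173.4 CPM (SD, n = 2) at 2MPT and 357.3 ± 99.8 CPM at 4MPT, and TLE4 at 47 ± 18 and 85.7 ± 42.5 CPM. Neither difference passed (0.99, adjusted p = 0.548, and 0.90, adjusted p = 0.361). Without PFC_2MPT, which left 1 library at 2MPT, they were 2.64 and 1.41. With a filter of 1 UMI POU3F2 was called (0.97, adjusted p = 0.0326). SOX5 was at 399.1 ± 210.1 and 608.1 ± 261.9 CPM (0.64, adjusted p = 0.603). BHLHE22 was at 487.1 ± 55.1 and 306.7 ± 151.4 CPM (-0.62, adjusted p = 0.518). Its difference was -1.18 without HIP_4MPT, which left 1 library at 4MPT. TBR1, BCL11B, CUX1 and CUX2 had log2 fold changes of 0.15, -0.10, -0.07 and -0.11 between the stages. The size of the differences of FEZF2, POU3F2, TLE4 and BHLHE22 thus depended on the libraries kept. The calls of FEZF2 and POU3F2 also depended on other settings.

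PFC was compared with HIP over the 4 grafts, with the stage in the fit, to ask whether the host site went with the layer genes. None of the 9 genes was called, where 0.0616% of all genes were called by edgeR (0.0493% higher and 0.0123% lower; 10 genes, 350 at an unadjusted p under 0.05; DESeq2 also called 10). The largest differences were those of FEZF2 at -1.17 (SE 0.456, unadjusted p = 0.0172, adjusted p = 1), POU3F2 at 0.92 (SE 0.525) and BHLHE22 at -0.58 (SE 0.392), and the other 6 lay between -0.08 and 0.32. With SEs of this size, sites that differ by the values given could not be told from sites that do not. Site and stage crossed for several genes. At 2MPT PFC was above HIP for SOX5, POU3F2, CUX2 and TLE4, and at 4MPT it was below HIP for the same 4 genes.

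Shares of neurons with a UMI also parted D0 from grafts, and 5 of the genes had a higher share in each graft than in D0 (3 without thinning). After thinning to 1000 UMIs, TBR1 was found in 13% of D0 neurons (exact Clopper-Pearson 95% interval 11.4% to 14.9%) and in 3.7% to 5% of graft neurons. CUX2 was found in 0.676% of D0 neurons and in 13% to 21.6% of graft neurons. BHLHE22 was found in 6.42% of D0 neurons and 38.3%, 31.5%, 30.9% and 16.6% of graft neurons, and SOX5 in 4.12% against 19.9%, 36.6%, 48.4% and 31.9%. No share passed 48.4% at this depth, so a neuron without a UMI cannot be taken as negative. Unthinned, TBR1 was found in 52.1% of D0 neurons.

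Free RNA gives UMIs in cells that do not make a gene, and 2 kinds of cells served to read it. In grafts these were 772 to 2071 host mouse cells per library, with medians of 54 to 241 human UMIs, in which the members' shares were 0% to 5.07%. The gate gene STMN2 had a human UMI in 36.1%, 15.4%, 16.9% and 30% of host cells (HIP_2MPT, PFC_2MPT, HIP_4MPT and PFC_4MPT). Free RNA could thus meet part of the neuron gate, and how many gated cells it let in was not tested. In D0 the cells used were 279 TTR-rich cells, in which TBR1 was at 5.33 CPM, BHLHE22 at 0.888 and SOX5 at 9.33, all under their level in neurons. FEZF2, at 140.8 CPM, TLE4, at 68.4 CPM, and CUX1, at 62 CPM, were in contrast about as high as or higher than in D0 neurons. Whether TTR-rich cells make FEZF2, TLE4 and CUX1 themselves was not tested, so for these genes their levels cannot be read as free RNA. CUX2 was at 5.77 CPM in the TTR-rich cells and 4.9 CPM in neurons, so its level in D0 neurons did not exceed theirs. Whether that level is free RNA was not tested, and the fold of CUX2 over D0 may be one over background. Among thinned TTR-rich cells, 0 of 279 held a UMI of CUX2, POU3F2 or BHLHE22, which allows a share of up to 1.08%. FEZF2 was found in 0.319% of HIP_4MPT neurons beside 0.29% of the shallower host cells, and its human UMIs in host cells amounted to 20.1 CPM there against 3.68 CPM in neurons. In PFC_4MPT the shares were 0.451% and 0.0832%, and the levels 3.88 CPM in neurons and 3.08 CPM in host cells. Other genes had host-cell levels near the neuronal ones in some grafts too. In the order HIP_2MPT, PFC_2MPT, HIP_4MPT and PFC_4MPT, TBR1 was at 46.9, 0, 47 and 40 CPM in host cells. In neurons TBR1 was at 36.3, 53.9, 50 and 47.2 CPM. CUX2 was at 160.8, 61.2, 114.1 and 58.4 CPM in host cells and 156.0, 248.1, 221.6 and 141.4 CPM in neurons. These host levels of TBR1 and CUX2 rest on 0 to 34 UMIs per library. STMN2 was at 2834.6, 2976.4, 1573.7 and 1430.1 CPM in host cells and 4417.5, 3668.5, 2958.5 and 2413.0 CPM in neurons. A CPM of human UMIs in host cells gives the make-up of the free RNA and not its amount. It is thus no measure of how much of a neuronal level was free RNA, which was not tested.

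FEZF2 was higher outside the neurons than in them. Cells without the neuron gate that carried progenitor markers held it at 190.5 CPM in D0, 67.4 and 59.2 CPM at 2MPT (HIP, then PFC) and 33.9 and 17.5 CPM at 4MPT, above the neurons of all 5 libraries. Its level in progenitor-marker cells thus also stood lower in each graft than in D0. Glutamatergic-marker neurons alone held FEZF2 at 208.9 CPM in D0, above the progenitor-marker cells there. At 4MPT they held it at 3.78 (HIP) and 4.31 (PFC) CPM, below the progenitor-marker cells. TLE4 was also higher in progenitor-marker cells than in neurons of all 5 libraries, at 60, 107.4, 160.4, 219.4 and 126.3 CPM, and so was CUX1, with neurons at 0.731 to 0.958 of the progenitor level. The libraries differed in their number of such cells, from 261 in HIP_2MPT to 2128 in D0.

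**Figure D3:**
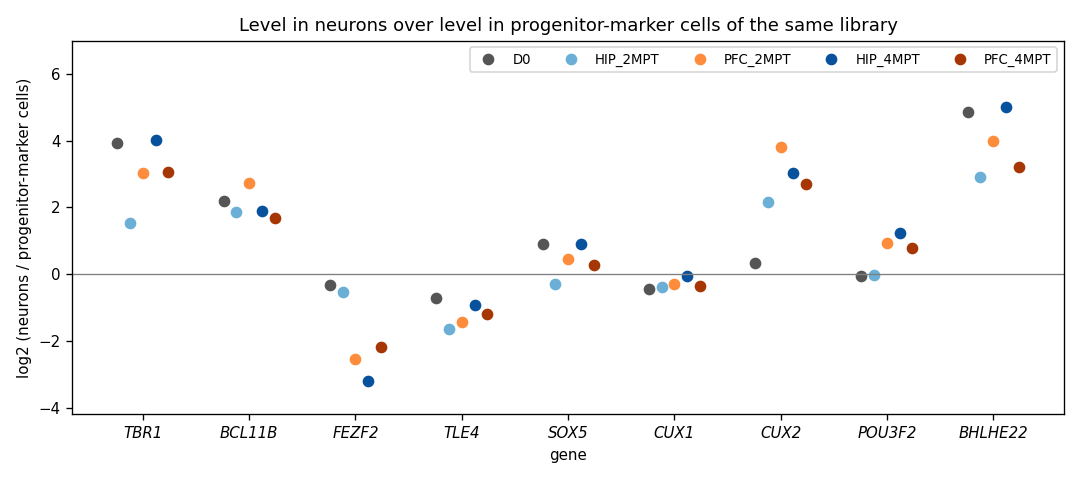
Log2 ratio of the CPM in neurons to the CPM in progenitor-marker cells of the same library for each gene, 1 point per library; 0 is an equal level. TBR1, BCL11B and BHLHE22 lay above 0 and FEZF2, TLE4 and CUX1 below 0 in all 5 libraries, and CUX2 stood at 4.46 to 14.2 times the progenitor level in grafts but 1.26 times in D0.

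TBR1, BCL11B and BHLHE22 were the neuronal genes of the set, at 2.91 to 16.3, 3.22 to 6.6 and 7.52 to 32.6 times their level in progenitor-marker cells. CUX2 was 1.26 times the progenitor level in D0 and 4.46 to 14.2 times in grafts. SOX5 and POU3F2 were shared between classes, at 0.816 to 1.88 and 0.951 to 2.33 times. POU3F2 is known in late progenitors as well as in neurons.

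Neurons with markers of inhibitory identity carried some of the same genes, and they numbered 125 in D0, 115 in HIP_4MPT and 583 in PFC_4MPT, against 1 and 11 at 2MPT. BCL11B, which also marks inhibitory neurons of the ventral forebrain, was at 170.6 CPM in inhibitory-marker neurons and 51.7 in glutamatergic-marker neurons of HIP_4MPT, and at 125.0 and 44.3 CPM in PFC_4MPT. In D0 both classes were high, at 131.3 and 164.8 CPM. SOX5 did not separate the classes at 4MPT, at 817.3 against 739.3 CPM in HIP_4MPT and 461.9 against 407.6 CPM in PFC_4MPT. TBR1 did, at 12 against 52.3 and 8.87 against 55.7 CPM, and BHLHE22 did, at 21 against 493.8 and 47 against 263.0 CPM. CUX2 was at 23.9 against 245.9 CPM in HIP_4MPT and 44.3 against 179.9 CPM in PFC_4MPT, so it too was mainly in glutamatergic-marker neurons. In D0, TLE4 was at 61.4 CPM in inhibitory-marker and 19.9 CPM in glutamatergic-marker neurons, an order that was turned at 4MPT, with 62.9 against 116.5 and 23.1 against 62.7 CPM. These are single libraries and carry no test.

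Neurons were also sorted by which layer genes gave a UMI, after thinning to 1000 UMIs. Deep-layer genes alone were found in 29.3% of D0 neurons (exact Clopper-Pearson 95% interval 27% to 31.7%), upper-layer genes alone in 6.15%, both in 6.22% and neither in 58.3%. In HIP_2MPT the shares were 14.9% deep only, 36.2% upper only and 17.1% both, and in PFC_2MPT 17.2%, 33.4% and 29.8%. HIP_4MPT had 20.5%, 27.8% and 37.8%, and PFC_4MPT had 22.6%, 28.2% and 19.1%. With BHLHE22 among the upper-layer genes, upper-only neurons thus outnumbered deep-only neurons in all 4 grafts, and the reverse held in D0. The rest, with no UMI of any layer gene, were 13.9% to 31.8% of graft neurons. BHLHE22 spans several layers, and the split was not read without it, so its part in the upper-only shares was not tested. SOX5 had the highest level of the deep-layer genes in each graft, whereas FEZF2, TBR1 and BCL11B led in D0. The split was not read without SOX5 either, so deep-only and mixed neurons may rest on different genes in D0 and in grafts.

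**Figure D4:**
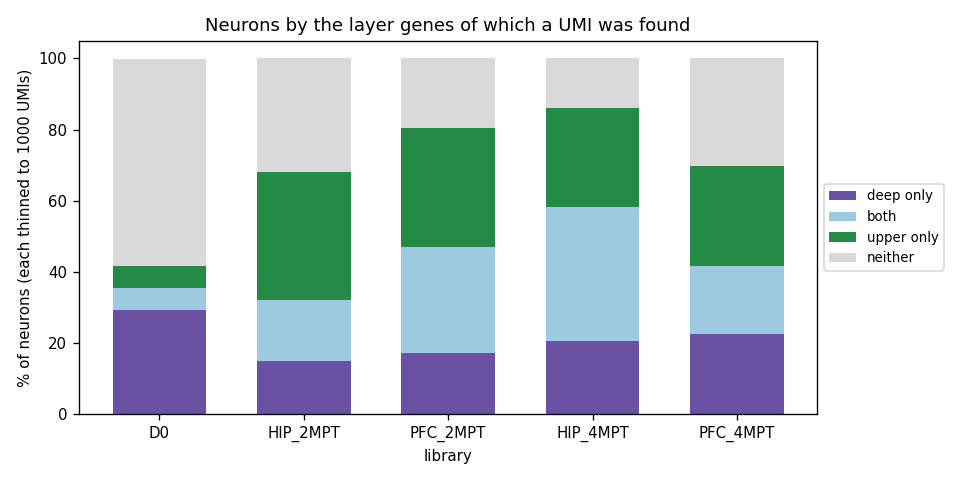
Shares of neurons, each thinned to 1000 UMIs, with UMIs of deep-layer genes only, of both groups, of upper-layer genes only or of neither, for each library. BHLHE22 counts among the upper-layer genes and SOX5 among the deep-layer genes. Deep-only neurons were 29.3% of D0 and 14.9% to 22.6% of grafts, and upper-only neurons 6.15% of D0 and 27.8% to 36.2% of grafts.

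Neurons with UMIs of both groups were 69.3% of HIP_4MPT when cells were thinned to 2000 UMIs, and 15.8%, 42.3%, 58.3% and 42.3% in D0, HIP_2MPT, PFC_2MPT and PFC_4MPT. That reading leaves out neurons under 2000 UMIs, so it rests on 605 of 5728 neurons in HIP_2MPT and on 1659 of 4433 in PFC_4MPT. The share of mixed neurons thus depends on the depth and on the cells read. The mean number of the 9 genes found per neuron thinned to 1000 UMIs was 0.57 in D0 and 1, 1.43, 1.61 and 1.08 in the grafts, and the highest number in any neuron was 6.

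Co-detection was read as the odds ratio of finding both genes of a pair in a neuron, taken within 10 bins of cells of like depth. In D0 the deep-layer genes were found together and with BHLHE22. TBR1 and BHLHE22 shared 361 neurons where 279.8 were expected from their separate frequencies, a log2 odds ratio of 2.78, and FEZF2 with BHLHE22 was at 2.35. BCL11B with BHLHE22 was at 1.80, TBR1 with FEZF2 at 1.76, TBR1 with SOX5 at 1.61 and TBR1 with BCL11B at 1.56. In all, 10 pairs exceeded 1 in D0, each made of TBR1, BCL11B, FEZF2, SOX5 and BHLHE22. TLE4 went the other way, at -0.97 with TBR1. Pairs of other genes were not read, in D0 or in grafts, so counts of pairs cannot be called particular to the layer genes.

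In grafts the pairs with TBR1 that could be read lay within about their spread of 0, and the others lay on either side of it. TBR1 with BHLHE22 was at 0.14 ± 0.26 (mean log2 odds ratio ± SD, n = 4 libraries), TBR1 with SOX5 at 0.09 ± 0.22, TBR1 with BCL11B at 0.06 ± 0.21 and SOX5 with BHLHE22 at -0.39 ± 0.10, which was 1.44 in D0. FEZF2 with SOX5 was at -0.56 ± 0.32 (n = 3 libraries) and BCL11B with SOX5 at 0.34 ± 0.17, on the same side of 0 in each graft that could be read. TBR1 with FEZF2 could not be read in grafts, and BCL11B with FEZF2 in 1 graft alone. Of 27 pairs with enough neurons in all 4 grafts, 7 were above 0 in each graft and 2 below in each, with a median of 0.14. The highest of the 27 was CUX2 with POU3F2, at 0.44 ± 0.21. D0 neurons were deeper, so the pairs were also read in neurons thinned to 2000 UMIs, a setting chosen after the data had been seen. There TBR1 with BHLHE22 was at 1.94 in D0 and 0.00 ± 0.24 in grafts, and TBR1 with SOX5 at 1.46 in D0 and 0.23 ± 0.14 (n = 3 libraries) in grafts. In glutamatergic-marker neurons TBR1 with BHLHE22 was at 1.38 in D0 and -0.14 ± 0.19 in grafts. Of the pairs above 1 in D0, TBR1 with SOX5 was at 0.95 in these neurons, BCL11B with SOX5 at 0.94 and FEZF2 with SOX5 at 0.85. The others of those pairs stayed above 1. At 1000 UMIs only 2 pairs of D0 could be read, TBR1 with BCL11B at 1.05 and TBR1 with FEZF2 at 0.81. Cells of a library are not replicates, so these ratios have no test.

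**Figure D5:**
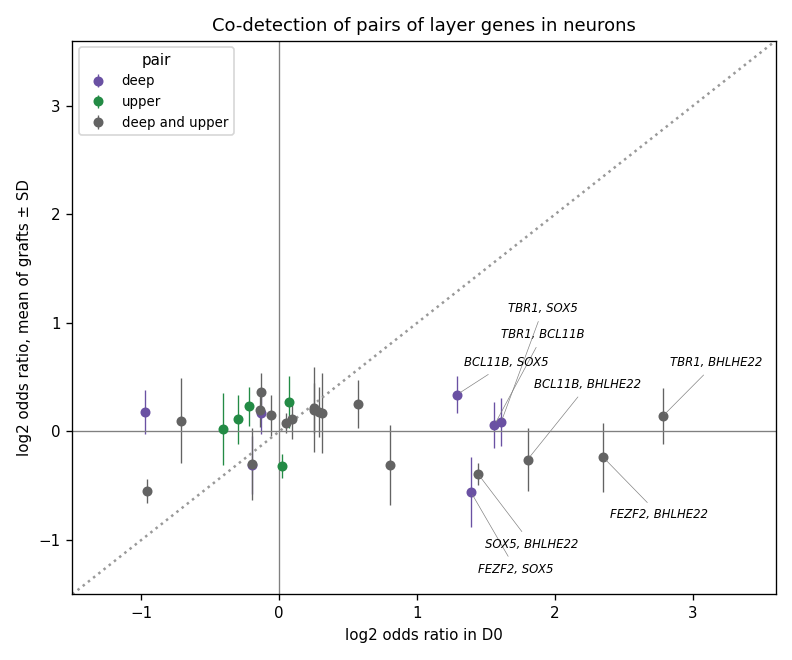
Log2 odds ratio of co-detection in D0 neurons (x axis) against the mean over grafts (y axis, bars are the SD over 3 or 4 libraries) for 30 pairs of layer genes, colored by whether both genes are deep-layer, both upper-layer or 1 of each; the dotted line marks equal values. The 8 named pairs were above 1 in D0 and between -0.56 and 0.34 in grafts.

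The UMIs of some of the genes were not spread evenly over neurons. In neurons thinned to 2000 UMIs, BHLHE22 was found in 180 D0 neurons where an even spread of its UMIs would give 258.8, and TBR1 in 306 where it would give 348.8. CUX1 was found in 140 D0 neurons where an even spread would give 140.0, and CUX2, with few UMIs, in 13 where it would give 12.9. In grafts, SOX5 was found in 244, 1546, 2162 and 808 neurons (HIP_2MPT, PFC_2MPT, HIP_4MPT and PFC_4MPT) where an even spread would give 277.9, 1847.4, 2449.1 and 919.7. BHLHE22 and SOX5 were thus in fewer neurons than their UMIs would fill in each of these libraries. This measure depends on the level of a gene and was chosen after the data had been seen, so genes were not ranked by it, and it carries no test.

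Other genes of the layers were taken from fixed lists to set the 9 beside them. Of 8 other deep-layer genes, 1 rose and 1 fell at 2MPT against D0, with NR4A3 at 1.82 (adjusted p = 0.0295) and PCP4, a calmodulin regulator of layer 5, at -3.57 (adjusted p = 4.46e-05). Of 8 other upper-layer genes, 1 rose and 1 fell, with the netrin receptor gene UNC5D at 7.31 (adjusted p = 8.06e-05) and CALB1 at -4.81 (adjusted p = 0.00226), all by edgeR over all genes. The list medians were 0.29 and 0.26, near the 0.16 of all genes, whereas the 4 upper-layer factors had a median of 2.75 and the 5 deep-layer ones of -1.05. In both lists 2 of 8 genes were called, where 41.0% of all genes were, so neither list had a share above that of all genes.

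Earliest-born neurons were represented by 2 lists. Of 5 Cajal-Retzius genes tested, 4 fell at 2MPT and 5 at 4MPT, where 16.0% and 17.8% of all genes were lower than in D0, among them RELN, the signal of these cells, at 36.5 CPM in D0 and 0.3 to 2.14 CPM in grafts. Of 6 subplate genes, 4 fell and 1 rose at 2MPT, and 3 fell and 1 rose at 4MPT, with NXPH4 at 79.1 CPM in D0 and 3.97 to 19.3 CPM in grafts and NR4A2 higher in grafts. TBR1, which these early cells also express, fell with them.

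Relatives of the 9 genes did not all follow them. Of 11 tested, 3 rose and 5 fell at 2MPT against D0, where 41.0% of all genes were called. At 4MPT against D0, 3 rose and 2 fell, where 44.6% of all genes were called. SOX6, a partner of SOX5 in the SoxD group, rose with it, at 6.02 CPM in D0, 18.3 and 18.2 at 2MPT and 75.8 and 81.4 at 4MPT, and it was called between the stages too (2.16, adjusted p = 0.0032). POU3F3, which is closest to POU3F2, rose with it as well (2.32, adjusted p = 0.0014 at 2MPT against D0). EOMES, the T-box factor of intermediate progenitors, was not called (0.71, adjusted p = 0.104), nor was BCL11A (0.61, adjusted p = 0.155), although TBR1 and BCL11B fell. FEZF1 had 691 UMIs in D0 neurons and 0 to 6 UMIs in each graft, and it fell at both stages, as FEZF2 did (adjusted p = 1.91e-05 and 2.24e-05 against D0). None of the lists had a gene called between PFC and HIP.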

How the data were processed

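Single-cell RNA-seq libraries (10x Genomics 3′ kit, version 3) of 5 conditions were analysed. The authors counted UMIs per gene and barcode with Cell Ranger (3.1.0 for D0 and 5.0.0 for grafts per the file headers; 3.1 in the submitters' processing notes) and deposited raw counts, on GRCh38 and, for grafts, also on a human-mouse reference. The handling of intronic reads is not given in the sources used here. Its part in the levels of long genes, such as SOX5, was not tested.

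Human cells had a human share over 0.8 in the dual reference, over 500 UMIs, over 500 genes, complexity (log10 of genes divided by log10 of UMIs) above 0.8 and a mitochondrial share under 0.15; 3303 of them under 1000 UMIs were not gated. No doublet caller was run. UMIs of neurons were summed per library and tested with edgeR 4.0.16 in R 4.3.3 (filterByExpr, TMM, quasi-likelihood F test, Benjamini-Hochberg over all genes, threshold 0.05), in 1 model of 3 stages in which D0, with its 1 library, took its spread from the graft stages, and for PFC against HIP in 4 grafts with the stage. The fits were tested on simulated data. The SE of an edgeR log2 fold change is its absolute value divided by the square root of the F statistic. CPM and shares have exact Poisson and Clopper-Pearson 95% intervals for counting error only. A pair had an odds ratio where at least 20 neurons with both genes were expected. Genes were matched by identifier across files. Named were the 9 genes, for each other list at most 4 called genes per comparison by size of change, and for relatives the most abundant per gene. The members and lists were chosen with earlier results of these data known. Alternatives were other neuron gates, glutamatergic-marker neurons, all human cells, DESeq2 1.42.0, a filter of 1 UMI, other cell filters, the dual reference, other thinning and depth bins, the graft site as block, and leaving out each graft library. Protein sequences and the FEZF2 promoter were not used here.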

Additional observations from a re-analysis of the deposited data

Results flagged for a closer look

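FEZF2 in HIP_2MPT neurons stood apart from the other grafts, at 46.6 CPM beside 3.68, 3.88 and 10.1 CPM. The gap to the nearest graft was 0.850 of the range of the 4 grafts, above Dixon's 95% critical value for 4 samples, which chance passes in about 1 of 20 groups. The other 8 genes had gaps of 0.248 to 0.705 of their range. FEZF2 in progenitor-marker cells was at 67.4 CPM in HIP_2MPT and 59.2 CPM in PFC_2MPT, so the libraries of that stage lay closer together there than in neurons. Human UMIs in the host cells of HIP_2MPT held 10 UMIs of FEZF2, 67 CPM with an interval of 32.1 to 123.2. The part of free RNA in the neuronal value was not tested.

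For 5 genes PFC was above HIP at 2MPT and below it at 4MPT, with counting intervals of the libraries that did not overlap at either stage. How many of all genes did the same was not counted, so this number cannot be called particular to the layer genes. The log2 ratio of PFC to HIP was 2.32 at 2MPT and -0.58 at 4MPT for POU3F2, and 1.13 and -0.91 for SOX5. TLE4 was at 0.80 and -1.06, CUX2 at 0.67 and -0.65, and CUX1 at 0.29 and -0.50. With 1 library per site and stage these differences between stages were not tested. Median UMIs per neuron were 1329 and 2321 in the HIP and PFC grafts at 2MPT and 2531 and 1827 in those at 4MPT, so at each stage the deeper library had the higher level of all 5 genes, and whether depth had a part in this was not tested. Heat shock genes summed to 128.3 and 651.1 CPM in HIP_2MPT and PFC_2MPT neurons and to 381.0 and 564.4 CPM at 4MPT. Median mitochondrial shares of neurons were 3.84% and 2.42% at 2MPT and 3.06% and 7.29% at 4MPT (HIP, then PFC). The part of these in the ratios was not tested either.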

How the results depend on the processing

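At 2MPT against D0, 111 of 117 alternative fold changes of the 9 genes kept their direction and side of the threshold, and at 4MPT against D0 110 of 117 did, with the other 7 all calls gained by TLE4. Reversals at 2MPT against D0 were those of TLE4 in all human cells (-0.16) and among the fits with a library left out (-0.30 to 0.64). BCL11B was not called in all human cells (-0.51, adjusted p = 0.155). Between 4MPT and 2MPT, the 160 genes called became 350 with the gate without STMN2, 457 in all human cells, 261 with DESeq2, 790 with a filter of 1 UMI, 105 in glutamatergic-marker neurons, 272 with the graft site as replicate block, and 324 to 660 with a library left out. Reversed there were TBR1 in all human cells (-0.17) and CUX2 in glutamatergic-marker neurons (0.05), and with a library left out TBR1 ranged from -0.12 to 0.52, BCL11B from -0.37 to 0.26, CUX1 from -0.29 to 0.13 and CUX2 from -0.43 to 0.31. The 10 genes called between PFC and HIP became 24 with the gate without STMN2, 32 with at least 2 UMIs of STMN2, 27 with a filter of 1 UMI, 17 in glutamatergic-marker neurons, 17 with the dual reference, 23 at a human share over 0.9, 26 without progenitor UMIs, 0 without the stage as a block and 0 to 1 with a library left out. Reversed there were TLE4 without progenitor UMIs (0.07), in glutamatergic-marker neurons (0.06) and in all human cells (0.07), and SOX5 without the stage (-0.06). With a library left out, the fit of the sites also dropped the stage, so its ranges mix site with stage. There FEZF2 ranged from -2.64 to 0.97, TLE4 from -0.95 to 0.85 and SOX5 from -0.66 to 1.05. CUX1 ranged from -0.28 to 0.19, CUX2 from -0.32 to 0.43 and POU3F2 from -0.48 to 2.37. None of the 9 genes was called between sites in any setting.

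The 5 genes with a higher share in each graft than in D0 became 3 without thinning. Upper-only minus deep-only neurons, as the mean over grafts less D0, was 35.8 percentage points and 49.8 in glutamatergic-marker neurons. The 10 pairs with a log2 odds ratio above 1 in D0 became 1 at 1000 UMIs, where 2 pairs could be read. The labels give no replicate numbers that grafts share, so site and stage were the only blocks to be had. Few UMIs limit FEZF2 at 4MPT, with 38 and 34 per library. Apart from these constructions, the causes of the changes were not tested.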

Other observations

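Antisense transcripts with more than 2 UMIs in the neurons of a library were counted beside 2 of the genes. SOX5-AS1 had 0 UMIs in D0 neurons and 6, 17, 47 and 15 in HIP_2MPT, PFC_2MPT, HIP_4MPT and PFC_4MPT neurons, lowest in D0 and highest in HIP_4MPT as SOX5 itself was. BHLHE22-AS1 had 0 UMIs in D0 neurons and 19, 18, 28 and 19 in the grafts. The D0 file was counted on another annotation release, so the zeros are of that file's own models. ETV1, a factor of layer 5 output neurons, was the 1 gene of the 8 other deep-layer genes that was called between the graft stages. It was at 4.64 and 5.61 CPM at 2MPT and 39.3 and 25 CPM at 4MPT (log2 fold change 2.69, SE 0.32, edgeR adjusted p = 0.00341). The other 7 were not called and the list median was -0.19, where 0.924% of all genes were called. Of the 5 deep-layer members, FEZF2 was called lower and the other 4 were not called.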
